A study of Homo sapiens with 32 samples.

Results

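The 5 genes described here were TXNIP, ARRDC4, ARRDC3, MLXIP and MLX, taken by their symbols from a table of 22610 gene entries in which expression was given as FPKM, mapped fragments scaled to transcript length and library size. The set was chosen by what the genes are known to do and with earlier comparisons of CBD with vehicle in these same libraries known, so every difference between CBD and vehicle in the 5 genes is given as a description and without a test. All 5 passed the filter of a mean of at least 1 FPKM over all samples, as did 12621 entries in all. RNA was sequenced from SK-N-BE(2), 1 human neuroblastoma line, with 20 µM cannabidiol (CBD) delivered in ethanol or with vehicle, 0.1% ethanol, for 3, 6, 12 or 24 h. There were 4 samples in each of the 8 groups, 32 in all, and each CBD group was set against the vehicle group of its own time.

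TXNIP, ARRDC4 and ARRDC3 encode alpha-arrestins, cytoplasmic adaptors that bring membrane proteins to ubiquitin ligases of the NEDD4 family. TXNIP also binds thioredoxin, and both TXNIP and ARRDC4 restrain glucose uptake by promoting internalisation of glucose transporters. MLXIP encodes MondoA, a factor that works as a pair with MLX. The pair is held largely outside the nucleus until glucose 6-phosphate accumulates. It then gathers in the nucleus and activates TXNIP and ARRDC4 through carbohydrate response elements. ARRDC3 is best known as an adaptor for the turnover of adrenergic receptors and integrins.

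On GRCh37, the build the study aligned to, the GENCODE annotation placed TXNIP on chromosome 1 from 145438490 to 145442635 on the plus strand and ARRDC4 on chromosome 15 from 98503933 to 98517063 on the plus strand. ARRDC3 lay on chromosome 5 from 90664448 to 90679134 on the minus strand, MLXIP on chromosome 12 from 122516628 to 122631894 on the plus strand and MLX on chromosome 17 from 40719090 to 40725257 on the plus strand. All 5 were annotated as protein coding. The exons of TXNIP, ARRDC4 and MLXIP overlapped no other gene. MLX shared 775 exonic bases, 18.2% of its exonic length, with PSMC3IP on the opposite strand, and ARRDC3 shared 145 bases, 2.91%, with the antisense transcript ARRDC3-AS1. The methods of the study describe the run as first stranded but do not say whether strand was used in computing FPKM. Without it, values of MLX and ARRDC3 could hold reads of these partners. No stretch of 50 bases, the read length, in the transcripts of TXNIP or ARRDC4 occurred in another gene's transcripts, whereas 0.738% of the stretches of MLXIP, 1.95% of ARRDC3 and 17.5% of MLX did.

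The 250 bases before the start sites of the arrestins are shown because these stretches contain, or lack, the letters to which MLX-containing dimers are known to bind. They come from RefSeq on GRCh38.p14, where TXNIP lies on the minus strand at chr1:145996580-145996829, ARRDC4 on the plus strand at chr15:97960453-97960702 and ARRDC3, at the more upstream of its 2 start sites, on the minus strand at chr5:91383318-91383567. Each sequence also had exactly 1 match on its chromosome of GRCh37, and that of each of these 3 arrestins ended directly before the annotated gene, for TXNIP on the plus strand, since the region runs the other way in that build. Capitals mark CACGAG and CACGTG, each an E-box type of letter string, and CCAAT or its reverse complement ATTGG.
TXNIP: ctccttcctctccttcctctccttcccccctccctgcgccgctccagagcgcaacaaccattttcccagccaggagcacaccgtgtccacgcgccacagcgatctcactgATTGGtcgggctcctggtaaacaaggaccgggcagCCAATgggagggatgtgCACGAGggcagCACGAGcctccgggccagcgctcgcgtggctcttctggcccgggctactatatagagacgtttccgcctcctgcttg
ARRDC4: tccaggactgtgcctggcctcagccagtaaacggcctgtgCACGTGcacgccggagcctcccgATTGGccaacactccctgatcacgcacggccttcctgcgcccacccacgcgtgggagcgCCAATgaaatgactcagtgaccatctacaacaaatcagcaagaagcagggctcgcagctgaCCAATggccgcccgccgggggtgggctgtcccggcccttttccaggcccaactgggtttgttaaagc
ARRDC3: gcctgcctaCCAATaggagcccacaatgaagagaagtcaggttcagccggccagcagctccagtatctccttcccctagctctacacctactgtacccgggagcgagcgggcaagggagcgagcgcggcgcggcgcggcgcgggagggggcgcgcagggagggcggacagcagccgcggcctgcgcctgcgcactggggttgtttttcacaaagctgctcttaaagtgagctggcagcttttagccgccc
The TXNIP stretch held CACGAG at -88 to -83 and again at -77 to -72 from the start site, 5 bases apart and in the same direction, the spacing of a carbohydrate response element. This arrangement, CACGNG followed by any 5 bases and CACGNG on either strand, was found in 16 of 35116 RefSeq promoter stretches of 250 bases, or 0.0456%, and in no other start site of the 5 genes. The ARRDC4 stretch held a single CACGTG at -210 to -205, a string found in 6.34% of all promoter stretches, and MLX had it at -50 to -45. Neither CACGTG nor CACGAG, found in 5.58% of stretches, occurred before ARRDC3 or MLXIP. CCAAT on either strand occurred at 2 places before TXNIP and at 3 before ARRDC4, where 9.53% of stretches had it at 2 or more places, and at 1 place before the upstream ARRDC3 start, MLXIP and MLX (32.0% had it at least once). The second TXNIP and second ARRDC3 start sites held none of these strings. These are matches of letters only, and binding was not measured.

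The libraries were those of neuroblastoma cells. All 10 neuroblastoma markers were detected in every sample, from DBH at 3.74 FPKM in its lowest sample to MYCN at 1421 to 2452 FPKM, whereas KRT5, KRT14, TP63 and DSG3, which define keratinocytes, a cell type also used in the study, did not exceed 0.187 FPKM in any sample. KRT10, less specific, stood at 5.78 to 9.0 FPKM. At 24 h the sum of the 10 neuroblastoma markers was 3445 to 3734 FPKM with CBD against 2933 to 3012 FPKM with vehicle, a rise carried by MYCN. Without MYCN the sum was lower with CBD at 24 h, 1263 to 1323 FPKM against 1339 to 1441 FPKM, and had means of 1638 with CBD and 1563 FPKM with vehicle at 3 h. The part of these shifts in the results below was not tested. Read depth is not recorded in FPKM, but the steps between low values of 1414 genes put the libraries within a 1.54-fold range of relative depth. The mean at each time was lower with CBD (0.945, 0.983, 0.912 and 1.00 of the median library) than with vehicle (1.03, 1.05, 1.00 and 1.06). The part of depth was not tested either. In these bulk samples, a fall in a gene's RNA per cell cannot be told apart from a loss of cells that carried more of it.

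TXNIP was lower with CBD at all 4 times, and the gap widened from 3 to 24 h. After 3 h, the 4 vehicle samples had 26.3, 27.9, 27.5 and 26.2 FPKM (replicates 1 to 4) and the 4 CBD samples 19.9, 20.2, 19.7 and 19.2 FPKM. After 6 h, vehicle samples had 28.0, 30.0, 30.0 and 31.1 FPKM and CBD samples 20.2, 20.1, 19.6 and 19.0 FPKM. All CBD samples lay below all vehicle samples at both times, by at least 6.03 FPKM at 3 h and 7.85 FPKM at 6 h. After 12 h, vehicle samples had 35.6, 34.2, 33.4 and 34.3 FPKM and CBD samples 19.8, 20.6, 22.5 and 20.2 FPKM. After 24 h, vehicle samples had 51.9, 50.0, 50.3 and 51.7 FPKM and CBD samples 27.8, 28.5, 28.3 and 27.7 FPKM. The groups again did not overlap, and at 24 h the highest CBD sample was 21.6 FPKM below the lowest vehicle sample. Relative to vehicle, the mean TXNIP level with CBD was 0.732, 0.662, 0.604 and 0.551 after 3, 6, 12 and 24 h. The scale of log2(FPKM + 1) understates changes, slightly for TXNIP and more for low genes. On it the differences of CBD minus vehicle were -0.43, -0.57, -0.70 and -0.84, each with an SE of 0.0316 (n = 4 per group). Ordered from the most negative difference, TXNIP stood 176th, 175th, 136th and 150th of 12621 genes at the 4 times.

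**Figure D1:**
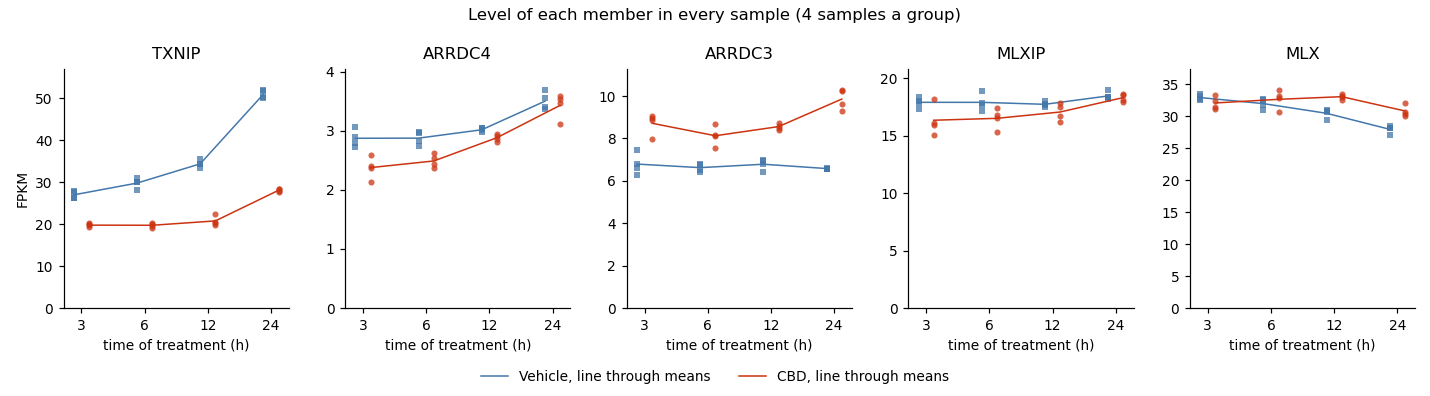
FPKM of the 5 genes (vertical axes from 0, a different range for each gene) in all 32 samples by hours of treatment, with squares for vehicle, circles for CBD and lines through the means of 4 samples. TXNIP with vehicle climbs to 51.0 FPKM at 24 h while TXNIP with CBD reaches 28.1, and ARRDC3 with CBD lies above vehicle at each time.

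ARRDC4 was lower with CBD early and had nearly the vehicle level at 24 h. After 3 h its level was 2.90, 2.73, 2.79 and 3.07 FPKM in the vehicle samples and 2.14, 2.41, 2.38 and 2.59 FPKM in the CBD samples. After 6 h it was 2.74, 2.98, 2.83 and 2.96 FPKM with vehicle and 2.54, 2.37, 2.62 and 2.43 FPKM with CBD. The CBD samples lay below the vehicle samples at both times, by gaps of 0.146 and 0.120 FPKM. After 12 h the vehicle samples had 3.04, 3.01, 2.97 and 3.04 FPKM and the CBD samples 2.95, 2.81, 2.86 and 2.91 FPKM, a gap of only 0.0237 FPKM between the nearest samples. After 24 h the groups overlapped, with 3.69, 3.40, 3.37 and 3.55 FPKM for vehicle and 3.12, 3.59, 3.48 and 3.55 FPKM for CBD. The mean with CBD was 0.827, 0.866, 0.955 and 0.980 of the vehicle mean at 3, 6, 12 and 24 h. The log2(FPKM + 1) differences were -0.20, -0.15, -0.05 and -0.02 with an SE of 0.0368, and because ARRDC4 is a low gene these depend on the value added: at 3 h the difference was -0.09 with 5 added. At 24 h it was 0.01 without CBD replicate 1, so it had no settled sign. Among all genes, ARRDC4 ranked 296th from the most negative at 3 h, 880th at 6 h, 4100th at 12 h and 5660th at 24 h.

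ARRDC3 moved the other way. With vehicle it stayed between 6.28 and 7.47 FPKM in all 16 samples, at means of 6.79 ± 0.501, 6.62 ± 0.187, 6.78 ± 0.258 and 6.58 ± 0.0153 FPKM (SD, n = 4) at 3, 6, 12 and 24 h. With CBD its level was 7.98, 8.98, 9.04 and 8.87 FPKM at 3 h and 8.15, 8.13, 7.54 and 8.70 FPKM at 6 h. It was 8.71, 8.42, 8.59 and 8.52 FPKM at 12 h and 10.3, 9.64, 10.2 and 9.28 FPKM at 24 h. The CBD samples of ARRDC3 lay above the vehicle samples of the same time throughout, with the nearest samples 0.505 FPKM apart at 3 h and 2.68 FPKM apart at 24 h. The ratio of means was 1.28, 1.23, 1.26 and 1.5, and the log2(FPKM + 1) differences were 0.32, 0.26, 0.30 and 0.52 with an SE of 0.0409.

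The 2 transcription factor genes differed less. MLXIP, the gene of MondoA, had vehicle means of 17.9 ± 0.446, 17.9 ± 0.718, 17.7 ± 0.203 and 18.5 ± 0.342 FPKM and CBD means of 16.4 ± 1.32, 16.5 ± 0.886, 17.1 ± 0.753 and 18.3 ± 0.336 FPKM (SD, n = 4), and its groups overlapped at each of the 4 times. Its log2(FPKM + 1) differences were -0.13, -0.11, -0.05 and -0.01 with an SE of 0.0398, and CBD replicate 1 at 3 h, with 18.2 FPKM, lay inside the vehicle range while the other 3 CBD samples had 15.1 to 16.1 FPKM. MLX, the dimerisation partner, had vehicle means of 32.9 ± 0.426, 32.0 ± 0.799, 30.5 ± 0.698 and 28.0 ± 0.573 FPKM and CBD means of 32.1 ± 0.988, 32.7 ± 1.44, 33.1 ± 0.380 and 30.8 ± 0.915 FPKM. MLX samples overlapped at 3 and 6 h, and with CBD they lay above vehicle at 12 and 24 h, with log2(FPKM + 1) differences of -0.04, 0.03, 0.11 and 0.14 and an SE of 0.0266.

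Over the 5 genes, samples of the CBD and vehicle groups did not overlap for 3, 3, 4 and 3 genes after 3, 6, 12 and 24 h, where 9.88%, 19.6%, 30.3% and 51.0% of all genes tested had no overlap. Since these contrasts were known when the genes were chosen, nothing is read from these counts.

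**Figure D2:**
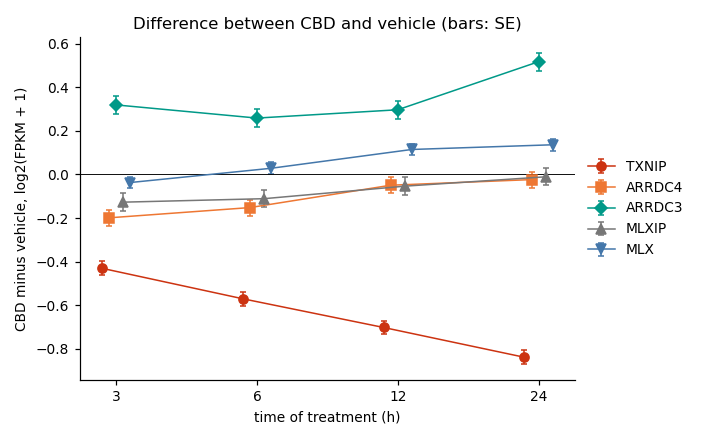
Difference of CBD minus vehicle in log2(FPKM + 1) (vertical axis) by hours of treatment for the 5 genes, with bars of 1 SE from the fit over all genes. The TXNIP line falls from -0.43 to -0.84, ARRDC4 returns from -0.20 to -0.02 and ARRDC3 ends at 0.52.

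The time course itself was tested, step by step within each treatment, with limma across all genes and Benjamini-Hochberg adjustment within each step (threshold 0.01). These steps use the same libraries as the comparisons of CBD with vehicle, and the p-values measure the spread between the samples, which the labels do not state to come from separate cultures. The methods of the study describe treatments prepared in quadruplicate at each time, without further detail on the cultures. TXNIP rose in vehicle at every step. The log2(FPKM + 1) change was 0.14 from 3 to 6 h (adjusted p = 0.00329 by limma), 0.20 from 6 to 12 h (adjusted p = 0.000149) and 0.56 from 12 to 24 h (adjusted p = 1.31e-12), where 9.48%, 4.87% and 39.4% of genes changed. In CBD-treated cells the TXNIP changes were -0.00 (adjusted p = 0.978) and 0.07 (adjusted p = 0.0886) over the first 2 steps, and TXNIP rose only from 12 to 24 h, by 0.42 (adjusted p = 1.71e-11). Of all genes, 11.0%, 23.8% and 52.0% changed at the CBD steps. From 3 to 24 h the mean TXNIP level thus went up 1.89-fold with vehicle and 1.42-fold with CBD, and whether the early vehicle and CBD steps differed was not tested. The first TXNIP step in vehicle was the least secure: the adjusted p was 0.0121 with median-ratio scaling and 0.0394 in a fit of those groups alone. It was also above 0.01 without vehicle 3 h replicate 1 (0.0143) or replicate 4 (0.0139), and without vehicle 6 h replicate 2 (0.0103), replicate 3 (0.0107) or replicate 4 (0.0175). The second step had an adjusted p of 0.0172 in a fit of its groups alone.

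ARRDC4 rose late in both treatments. In vehicle it changed by 0.00 from 3 to 6 h (adjusted p = 0.994 by limma) and 0.05 from 6 to 12 h (adjusted p = 0.413), then rose by 0.16 from 12 to 24 h (adjusted p = 0.000583). In CBD its change from 3 to 6 h was 0.05 (adjusted p = 0.389), and it rose by 0.15 from 6 to 12 h (adjusted p = 0.00181) and by 0.19 from 12 to 24 h (adjusted p = 7.59e-05). Its mean went up 1.22-fold with vehicle and 1.44-fold with CBD between 3 and 24 h. These 3 calls were lost with quantile normalization, with adjusted p of 0.123 for the vehicle step and 0.0123 and 0.0254 for the CBD steps.

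ARRDC3 had no called step in vehicle and rose with CBD from 12 to 24 h, by 0.18 (adjusted p = 0.000383 by limma). MLX fell over the same interval in both treatments, by 0.12 with vehicle (adjusted p = 0.000514) and by 0.10 with CBD (adjusted p = 0.00236). The MLX calls did not hold with quantile normalization (adjusted p = 0.0683 and 0.338), and the CBD call did not hold without CBD 24 h replicate 4 (adjusted p = 0.0117). MLXIP had no called step, although its rise of 0.10 with CBD from 12 to 24 h passed with quantile normalization (adjusted p = 0.00423).

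FPKM is scaled to transcript length, so levels can be set side by side between genes, with least certainty for MLX. Of its stretches of 50 bases, 17.5% occur in other genes' transcripts, and 18.2% of its exonic length overlaps PSMC3IP. The part of these in its place was not tested. With vehicle at 3 h the order was MLX (32.9 FPKM), TXNIP (27.0), MLXIP (17.9), ARRDC3 (6.79) and ARRDC4 (2.87). At 24 h with vehicle TXNIP led with 51.0 FPKM against 28.0 for MLX, while at 24 h with CBD MLX (30.1 to 32.2 FPKM) stayed above TXNIP (27.7 to 28.5 FPKM). Ordered across groups, TXNIP was lowest with CBD at 6, 3 and 12 h (means of 19.7, 19.8 and 20.8 FPKM), groups whose samples overlapped. TXNIP with CBD at 24 h (28.1 FPKM) overlapped with vehicle at 3 h (27.0 FPKM) and at 6 h (29.8 FPKM), and vehicle at 12 and 24 h stood clear of all others. The ratio of TXNIP to ARRDC4 within a sample rose with vehicle, from 9.41 ± 0.758 at 3 h to 10.4 ± 0.246, 11.4 ± 0.216 and 14.6 ± 0.357 at 24 h (SD, n = 4). With CBD it was 8.35 ± 0.775, 7.93 ± 0.414, 7.21 ± 0.504 and 8.20 ± 0.497. All 16 CBD samples had a ratio between 6.71 and 9.33. Compared at the same time, samples of the 2 treatments shared ratio values only at 3 h. Nothing is read from this, since these contrasts were known when the genes were chosen.

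**Figure D3:**
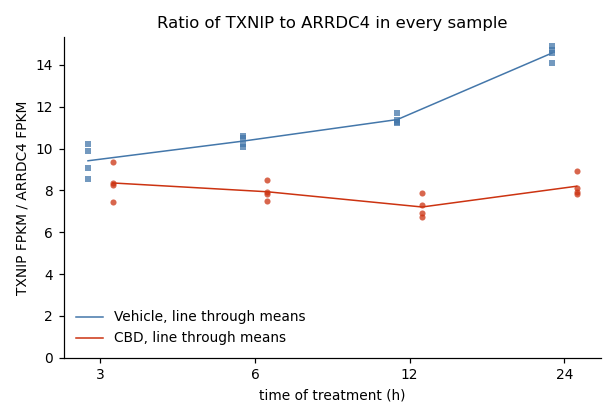
TXNIP FPKM divided by ARRDC4 FPKM in every sample (vertical axis from 0) by hours of treatment, with squares for vehicle, circles for CBD and lines through the means of 4 samples. The vehicle mean goes from 9.41 to 14.6, while the CBD means lie between 7.21 and 8.35.

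Over the 8 group means, Pearson's r of log2(FPKM + 1) was 0.80 between TXNIP and ARRDC4, 0.83 between TXNIP and MLXIP, -0.89 between TXNIP and MLX and -0.61 between TXNIP and ARRDC3. It was 0.93 between ARRDC4 and MLXIP. These 8 points share 1 time course and its libraries, so the values describe the shape of the profiles only. In all, 429 genes, MLXIP among them, followed TXNIP more closely than ARRDC4 did. The 5 genes with the profile most like that of TXNIP were PTCHD1 (r = 0.98), SOX4 (0.98), GRN (0.98), MGAT5 (0.97) and PLXNA1 (0.97). SOX4, a transcription factor of neural progenitors, went from 53.5 to 74.9 FPKM with vehicle between 3 and 24 h and from 48.7 to 54.3 FPKM with CBD. PTCHD1 went from 3.25 to 4.61 FPKM with vehicle and from 2.82 to 3.38 FPKM with CBD. Those most like ARRDC4 were BACE1 (r = 0.98), GLCE (0.98), KLF12 (0.98), ARFGEF1 (0.97) and FNDC8 (0.97). BACE1, the beta-secretase that cleaves the amyloid precursor, went from 31.0 to 35.1 FPKM with vehicle and from 29.3 to 34.2 FPKM with CBD.

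Genes outside the 5 were tested for CBD against vehicle with limma. Their log2 differences are on the scale of log2(FPKM + 1), and in low genes the size depends on the value added. Over the alternatives that kept all samples, the 24 h difference ranged from 0.43 to 1.17 for SLC2A4 and from 0.20 to 0.77 for NEDD4. At an adjusted p under 0.01, 1.18%, 4.07%, 8.85% and 20.8% of all genes were higher with CBD at the 4 times and 1.28%, 6.13%, 11.2% and 21.3% were lower, with a median log2(FPKM + 1) difference over all genes between -0.0048 and 0.0066. Other genes known to respond to carbohydrate through MondoA or its paralogue ChREBP were listed, and some rose while others fell with CBD. Whether they share a cause with TXNIP was not tested. Of the 20 listed, 13 were expressed highly enough to test. MLXIPL, the gene of ChREBP, averaged 0.0133 FPKM. Of those 13, 1, 2, 6 and 8 rose and 0, 1, 3 and 3 fell at the 4 times, with medians of -0.02, -0.04, 0.06 and 0.19. RGS16, a regulator of G protein signalling, was the gene that rose at 3 h, from 6.86 ± 0.273 FPKM with vehicle to 9.96 ± 0.354 FPKM with CBD (SD, n = 4; log2 difference 0.48, SE 0.0384, limma adjusted p = 2.43e-09). PNPLA3, a lipid droplet acyltransferase and lipase, rose at 24 h from 1.73 ± 0.0645 to 3.74 ± 0.0910 FPKM (log2 difference 0.79, SE 0.0378, limma adjusted p = 2.12e-15). ACACA, ACLY, FASN and ELOVL6, enzymes of fatty acid synthesis that sterol regulatory element binding proteins also control, rose at 12 and 24 h, by 0.27, 0.19, 0.38 and 0.26 at 24 h. HK2, the inducible hexokinase, fell at 24 h from 16.4 ± 1.17 to 9.02 ± 0.792 FPKM (log2 difference -0.80, SE 0.0513, limma adjusted p = 1.02e-12). KLF10, a transcriptional repressor, fell at 24 h, by 0.15 (adjusted p = 0.000323), and PFKFB3, which makes the activator of phosphofructokinase, by 0.46 (adjusted p = 5.62e-12).

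Among genes of glucose uptake and phosphorylation, 9 of 14 could be tested, too few for their calls to be read against the shares over all genes. Those shares were 4.07%, 8.85% and 20.8% higher with CBD at 6, 12 and 24 h and 6.13%, 11.2% and 21.3% lower. At 3 h 0 of the 9 passed by limma in either direction, with 1 at an unadjusted p under 0.05. After that 1, 3 and 3 rose and 2, 2 and 2 fell at 6, 12 and 24 h, with medians of -0.01 at 3 h and 0.09, -0.04 and -0.03 at the later times. SLC2A1, the basal glucose transporter GLUT1, fell at 24 h from 28.2 ± 1.55 to 14.2 ± 0.882 FPKM (log2 difference -0.94, SE 0.0549, limma adjusted p = 1.36e-13), and HK2 was the other gene that fell. SLC2A4, the insulin-responsive transporter GLUT4, rose from 1.81 ± 0.0645 to 4.19 ± 0.148 FPKM (log2 difference 0.88, SE 0.0492, limma adjusted p = 4.62e-14). SLC2A6 and SLC2A13, a lysosomal hexose transporter and a myo-inositol transporter, rose by 0.33 (adjusted p = 3.69e-05) and 0.35 (adjusted p = 5.35e-09).

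Of the 11 listed genes of the MYC, MAX and MLX network, which share E-box binding, 9 were tested. At 3 h 0 passed by limma, with 4 at an unadjusted p under 0.05 and 0.123 as the lowest adjusted p. After that, 1 rose and 1 fell at 6 h, 3 rose and 1 fell at 12 h, and 3 rose and 0 fell at 24 h (median 0.02). Over all genes, 4.07%, 8.85% and 20.8% were higher at 6, 12 and 24 h and 6.13%, 11.2% and 21.3% were lower. MYCN, which is amplified in this line, rose at 24 h from 1554 ± 40.7 to 2257 ± 130 FPKM (log2 difference 0.54, SE 0.0357, limma adjusted p = 1.82e-12). MYCL rose from 4.41 ± 0.151 to 7.65 ± 0.132 FPKM (log2 difference 0.68, SE 0.0339, limma adjusted p = 5.42e-15). MNT, a repressor that can pair with MLX as well as MAX, rose from 8.75 ± 0.122 to 11.0 ± 0.438 FPKM (log2 difference 0.30, SE 0.0399, limma adjusted p = 5.33e-07).

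Of all genes, 6.13% were lower with CBD at 6 h and 21.3% at 24 h, and 8.85% were higher at 12 h. Of 7 other arrestins listed, 4 were tested, too few for their calls to be read against these shares. At 3 h 0 passed by limma, with 1 at an unadjusted p under 0.05, at 6 h 0 rose and 1 fell, at 12 h 1 rose and 0 fell, and at 24 h 0 rose and 1 fell, with medians of 0.04, -0.07, 0.02 and 0.02. ARRB1, a beta-arrestin, was lower at 6 h (25.0 ± 0.421 with vehicle and 22.7 ± 0.564 FPKM with CBD, log2 difference -0.14, SE 0.0260, limma adjusted p = 0.000351) and at 24 h by 0.09 (adjusted p = 0.00400). The 24 h call of ARRB1 was lost with quantile normalization (adjusted p = 0.0188) and without vehicle replicate 2 (0.01004), 3 (0.0130) or 4 (0.0111) or CBD replicate 3 (0.0129). ARRDC2, another alpha-arrestin, was higher at 12 h, 3.89 ± 0.162 against 3.49 ± 0.166 FPKM (log2 difference 0.12, SE 0.0361, limma adjusted p = 0.00990). That call was lost in 7 of 9 alternative fits, with adjusted p up to 0.0389, and in 6 of the 8 fits that leave out a 12 h sample (vehicle replicate 1, 2 or 4, CBD replicate 1, 2 or 3), with adjusted p up to 0.0436. ARRDC1 and ARRB2 passed at none of the 4 times.

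**Figure D4:**
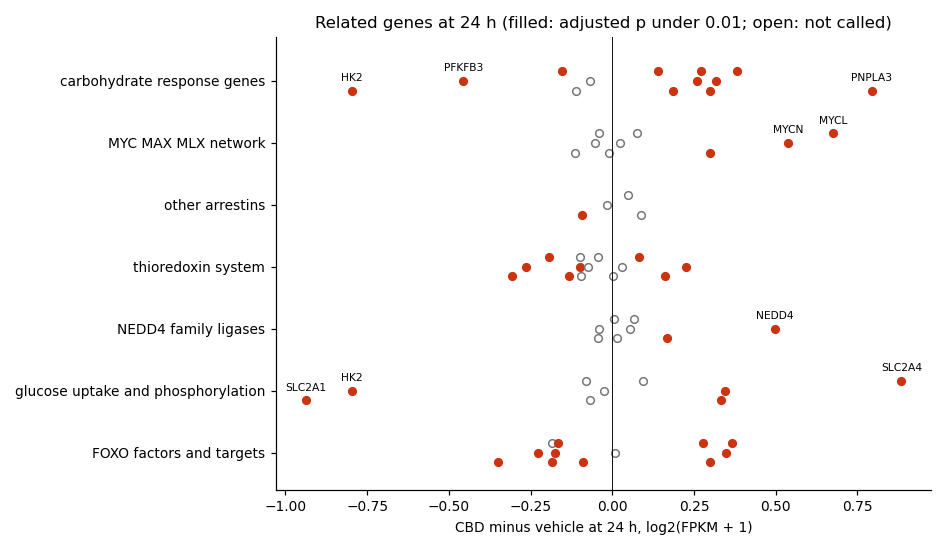
Difference of CBD minus vehicle at 24 h in log2(FPKM + 1) (horizontal axis) for the genes tested in each of the 7 lists of related genes, 1 point a gene. Filled points passed an adjusted p of 0.01 and open points did not, and SLC2A1, at -0.94, and SLC2A4, at 0.88, lie farthest from 0.

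All 14 listed genes of the thioredoxin system, which includes thioredoxin, the protein that TXNIP binds, were tested. At the 4 times 1, 3, 1 and 3 of them were higher and 0, 0, 3 and 5 lower with CBD, and their medians were 0.05, 0.04, -0.03 and -0.09. Over all genes, 1.18%, 4.07%, 8.85% and 20.8% were higher and 1.28%, 6.13%, 11.2% and 21.3% lower. TXNRD1, thioredoxin reductase 1, was the gene higher at 3 h, by 0.10 (adjusted p = 0.00228 by limma), a call lost with quantile normalization (0.0177), in a fit of those groups alone (0.0398), without vehicle replicate 3 (0.0114) and without CBD replicate 2 (0.0130). At 24 h TXNRD1 had 85.0 ± 1.5 FPKM against 72.6 ± 2.40 FPKM with vehicle (log2 difference 0.22, SE 0.0202, limma adjusted p = 6.08e-10). TXN, thioredoxin itself, did not pass at any of the 4 times, with differences from -0.03 to 0.05. MSRB1, a methionine sulfoxide reductase, fell at 24 h from 7.62 ± 0.318 to 5.97 ± 0.173 FPKM (log2 difference -0.31, SE 0.0512, limma adjusted p = 1.60e-05), and TXNDC17, a small thioredoxin-like protein, fell from 10.1 ± 0.443 to 8.21 ± 0.422 FPKM (log2 difference -0.26, SE 0.0430, limma adjusted p = 1.12e-05).

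Of the NEDD4 family ligases, the partners of alpha-arrestins, 8 of 9 were tested, and 0, 0, 1 and 2 rose and 0 fell by limma at the 4 times (medians -0.00, -0.01, 0.00 and 0.03). At an unadjusted p under 0.05 there were 1 at 3 h and 3 at 6 h. Over all genes, 8.85% and 20.8% were higher with CBD at 12 and 24 h and 11.2% and 21.3% were lower. NEDD4 rose at 24 h from 1.15 ± 0.0535 to 2.05 ± 0.200 FPKM (log2 difference 0.50, SE 0.0449, limma adjusted p = 6.37e-10). WWP1 had 7.45 ± 0.281 FPKM with vehicle and 8.50 ± 0.0972 FPKM with CBD at 24 h (log2 difference 0.17, SE 0.0444, limma adjusted p = 0.00229), a call lost without vehicle 24 h replicate 2 (adjusted p = 0.0119). ITCH, the ligase best known to act on TXNIP itself, differed by -0.04 to 0.01 and did not pass.

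FOXO factors and their targets, a nutrient-controlled group, included genes higher and genes lower with CBD. Over all genes, 4.07%, 8.85% and 20.8% were higher at 6, 12 and 24 h and 6.13%, 11.2% and 21.3% were lower. Of 13 listed, 12 were tested, and 0, 1, 2 and 4 rose and 0, 3, 6 and 6 fell by limma at the 4 times (at 3 h, 5 had an unadjusted p under 0.05), with medians of -0.02, -0.05, -0.10 and -0.13. SESN3, a sestrin that inhibits mTORC1, fell at 6 h from 4.22 ± 0.466 to 2.96 ± 0.148 FPKM (log2 difference -0.39, SE 0.0628, limma adjusted p = 5.56e-05), with an adjusted p of 0.0114 in a fit of those groups alone. PIK3IP1, an inhibitor of PI3 kinase, rose at 24 h from 1.90 ± 0.0898 to 2.73 ± 0.130 FPKM (log2 difference 0.36, SE 0.0484, limma adjusted p = 5.14e-07). IRS2, an insulin receptor substrate, rose from 1.35 ± 0.0797 to 1.99 ± 0.0486 FPKM (log2 difference 0.35, SE 0.0364, limma adjusted p = 9.55e-09).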

How the data were processed

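Single reads of 50 bases from polyA RNA of SK-N-BE(2) cells had been trimmed with Trimmomatic version 0.36 and aligned to hg19 (GRCh37) with TopHat, per the submitters' processing notes, which also name FastQC, Cufflinks and Cuffdiff. The labels name a Nugen library kit and the methods of the study an Illumina kit. The deposited values used here are FPKM per gene and sample, computed by the authors with Cufflinks, with no further scaling stated. Per the labels, all 32 libraries were pooled over the same 7 lanes, so no sequencing lane separates the groups. The sample titles and the methods of the study name no batch of culture, harvest or library preparation. A deposited table of Cuffdiff comparisons holds the authors' log2 fold changes and q-values and was not used.

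FPKM were transformed to log2(FPKM + 1), and 12621 of 22610 entries were tested, those averaging 1 FPKM or more. The model, with a mean for each of the 8 groups, came from limma (version 3.58.1, intensity trend; R version 4.3.3), after the script had been tested on simulated data. The 10 contrasts were CBD against vehicle at 4 times and 3 time steps in each treatment, each with Benjamini-Hochberg adjustment at 0.01. FPKM hold no counts, so depth was known only relative between libraries and no counting interval was given. The 5 genes, the 7 lists of related genes and the tests were chosen with earlier results of these data known. From each list, up to 3 genes with the largest called difference at any time are named with full values, and a few others were named after their values were seen. Promoters are from RefSeq on GRCh38.p14, and all 5 genes had an entry. Alternatives were another added value (0.1 or 5), another filter (none, or 5 FPKM on average), quantile normalization, median-ratio scaling, fits of only the groups compared, a replicate block, limma without trend or robust, and each sample left out.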

Additional observations from a re-analysis of the deposited data

Results flagged for a closer look

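Each of 76 groups of 4 samples (genes named from lists and members, by treatment and time) was searched for a sample whose gap to its nearest neighbour, as a share of the group's range, was above Dixon's critical value for 4 samples, and 2 groups had one, where chance gives about 1 in 20. ARRDC3 in CBD 3 h replicate 1 stood at 7.98 FPKM, below the other 3 samples at 8.87 to 9.04 FPKM and still above the vehicle samples of that time. MYCN in CBD 24 h replicate 2 stood at 2452 FPKM, above the other 3 at 2182 to 2208 FPKM.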

How the results depend on the processing

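No called result changed sign under an alternative run. The sign of 2 differences near 0 did turn at 24 h with 1 sample left out, that of ARRDC4 from -0.02 to 0.0114 without CBD replicate 1 and that of MLXIP from -0.01 to 0.00138 without vehicle replicate 2. Among single genes, 38 alternatives lost a call, 1 gained one and 5 moved a value of ARRDC3. With 5 added before the logarithm, the TXNIP differences of CBD minus vehicle were -0.37, -0.49, -0.61 and -0.76 at 3, 6, 12 and 24 h, and those of ARRDC4 were -0.0941, -0.0727 and -0.0244 at 3, 6 and 12 h. Median-ratio scaling gave -0.86 for TXNIP at 24 h. ARRDC4 was -0.20 at 6 h with 0.1 added and -0.0767 at 12 h with quantile normalization, and it was not kept by a filter at a mean FPKM of 5. Fits of only the groups compared, with fewer samples to estimate the spread, called 29 genes for CBD against vehicle at 3 h (310 in the reported fit), 425 at 6 h (1288), 391 for vehicle at 6 h against 3 h (1196), 132 for vehicle at 12 h against 6 h (615), 216 for CBD at 6 h against 3 h (1385) and 1452 for CBD at 12 h against 6 h (3004). With 1 sample left out, the counts ranged from 164 to 493 for CBD against vehicle at 3 h, from 737 to 978 for vehicle at 6 h against 3 h and from 327 to 494 for vehicle at 12 h against 6 h. At 3 h the count was 183 without vehicle replicate 3, 164 without vehicle replicate 4, 493 without CBD replicate 1, 168 without CBD replicate 2 and 196 without CBD replicate 3. For the vehicle steps it was 737 without 3 h replicate 2, and 327 without 6 h replicate 1, 400 without 12 h replicate 3 and 388 without 12 h replicate 4.

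Samples with the same replicate number did not deviate together (r from -0.0757 to 0.0935 over 16 pairs of a CBD and a vehicle sample, 0 above 0.1), so the numbers were not taken as pairs. A fit with a replicate block called 447, 1570, 2806 and 5641 genes for CBD against vehicle at 3, 6, 12 and 24 h, and among the single-gene calls named in the report it took ARRDC2 at 12 h, and no other, past the threshold (adjusted p = 0.0107 by limma). Changes in low genes are limited by the unknown depth, and 4 samples a group limit the precision of all of them.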
